A study of Mus musculus with 2 samples.

Results

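The 36 genes described here mark phases of the cell division cycle. They were chosen by name as 15 genes of DNA replication (S phase) and 21 genes of mitosis, and all 36 were found among the 32285 genes counted. They were followed in 2 single-cell RNA libraries of mouse mitral valve, 1 from 5 pooled wild type mice (Fbn1 +/+) and 1 from 3 pooled Fbn1 C1039G/+ mice, all on the C57BL/6J strain and 1 month old. C1039G replaces a cysteine of fibrillin-1, a protein of extracellular microfibrils, and mice with 1 such allele are used as a model of Marfan syndrome. The allele is carried in the germline, so every cell type of these mice has it. Both leaflets were dissected and digested with enzymes before capture, and animals were pooled before capture, so no value can be assigned to a mouse by its label. Each genotype had 1 library, there was no replicate, and no p-value was computed. Intervals are at 95%, cover counting error only, and are too narrow where a few cells hold most molecules of a gene. A level is given as CPM, the molecules of a gene (counted by unique molecular identifiers, UMIs) in a cell class, scaled to the class total of that library.

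A dividing cell copies its DNA in S phase and parts the copies in mitosis. The helicase subunits Mcm2 to Mcm7, their loader Cdc6 and the helicase partner Gins2 open the DNA, and Pcna, the sliding clamp of the polymerases, and Pclaf, which binds the clamp, act at the fork. Rrm1, Rrm2, Tyms and Dut supply or protect the nucleotides, and Uhrf1 helps to carry DNA methylation to the new strand. In mitosis Top2a untangles the DNA, Cdk1 with its cyclins Ccna2, Ccnb1 and Ccnb2 drives entry, Plk1, Aurka, Aurkb and Bub1 are kinases, and Cenpa, Cenpe, Cenpf and Nuf2 belong to the centromere and kinetochore. Tpx2, Prc1 and Hmmr act on spindle microtubules, Birc5 belongs to the complex of Aurkb, Cdc20 and Ube2c serve the breakdown of cyclins, Anln acts in the division of the cell body, and Mki67 coats mitotic chromosomes and is the common marker of cycling cells. Replication genes are known to be switched on through E2F factors, and many mitotic genes through CCAAT boxes and the cell cycle homology region (CHR).

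Promoter sequences are shown for members of each set with many UMIs, since these elements are the known difference in control between the sets. The sequences are from RefSeq on build GRCm38.p6 and hold the 200 bases before the first listed start, 5′ to 3′ on the strand of the gene. They lie at chr7:102441495-102441694 (Rrm1, plus strand), chr1:128359706-128359905 (Mcm6, minus), chr5:30073626-30073825 (Tyms, minus), chr11:99024190-99024389 (Top2a, minus), chr11:117849037-117849236 (Birc5, plus) and chr7:135716380-135716579 (Mki67, minus). None of these windows touches an exon in GENCODE release M21, and Pcna, Dut, Ube2c and Cenpa are not shown because theirs do. Capitals mark matches on either strand to E2F-type words (TTTCCCGC or TTTGGCGC or TTTCGCGC or TTTGCCGC), to CCAAT, or to CHR-type words (TTTGAA or TTCGAA).
Rrm1: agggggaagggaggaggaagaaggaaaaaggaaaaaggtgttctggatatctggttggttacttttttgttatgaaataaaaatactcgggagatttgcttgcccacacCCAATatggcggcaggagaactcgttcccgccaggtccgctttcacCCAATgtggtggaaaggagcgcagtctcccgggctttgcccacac
Mcm6: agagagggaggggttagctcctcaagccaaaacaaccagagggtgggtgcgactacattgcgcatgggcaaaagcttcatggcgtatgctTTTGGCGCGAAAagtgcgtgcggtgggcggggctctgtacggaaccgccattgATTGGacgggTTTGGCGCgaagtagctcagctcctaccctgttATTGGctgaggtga
Tyms: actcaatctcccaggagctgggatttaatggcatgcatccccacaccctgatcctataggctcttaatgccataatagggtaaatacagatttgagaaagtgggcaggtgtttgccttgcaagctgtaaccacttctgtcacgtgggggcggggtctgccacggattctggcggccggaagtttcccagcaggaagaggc
Top2a: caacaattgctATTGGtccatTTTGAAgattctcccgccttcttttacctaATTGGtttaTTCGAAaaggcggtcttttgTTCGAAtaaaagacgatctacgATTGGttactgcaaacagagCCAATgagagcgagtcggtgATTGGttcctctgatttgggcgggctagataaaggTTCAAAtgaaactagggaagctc
Birc5: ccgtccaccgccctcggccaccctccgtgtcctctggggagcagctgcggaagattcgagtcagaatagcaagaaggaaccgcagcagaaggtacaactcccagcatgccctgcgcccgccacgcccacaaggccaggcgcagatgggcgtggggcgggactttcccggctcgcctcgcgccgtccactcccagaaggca
Mki67: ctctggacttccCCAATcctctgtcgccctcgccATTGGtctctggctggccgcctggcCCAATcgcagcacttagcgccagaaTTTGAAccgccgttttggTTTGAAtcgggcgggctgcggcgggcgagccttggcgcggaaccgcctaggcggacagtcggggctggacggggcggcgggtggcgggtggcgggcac

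The Mcm6 window held 3 E2F-type matches, of which 2 overlap at 110 to 99 bases before the start, and 2 CCAAT matches. The Top2a window held 5 CCAAT and 4 CHR-type matches, and the Mki67 window held 3 and 2. Tyms and Birc5 had no match in their windows. Over the 250 bases before the start, E2F-type words were found in 4 of the 13 S-phase members with an entry (30.8%), in 1 of 18 mitotic members (5.56%) and in 1.91% of all 27025 promoters. CCAAT was found in 10 of 13 (76.9%), 15 of 18 (83.3%) and 34.5%. A CHR-type word together with CCAAT was found in 2 of 13 (15.4%), 6 of 18 (33.3%) and 6.21%. Mcm4, Gins2, Ccna2, Tpx2 and Aurkb had no entry. These matches are descriptions of letters and not of bound sites.

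The libraries held 100969482 (wild type) and 103663375 UMIs, and their 9509 and 9744 barcodes had 17 sequences in common. A floor of 1000 UMIs and a ceiling of 20% for mitochondrial transcripts left 9395 and 9540 barcodes. Barcodes with at least 1% of their UMIs from Dcn, Col1a1, Col1a2 and Col3a1 were called interstitial (7557 and 7768). Of the others, those with at least 10 UMIs of C1qa, C1qb and C1qc were called macrophage (813 and 890), and those with at least 5 UMIs of Pecam1, Cdh5 and Emcn endothelial (250 and 318). The 8 macrophage markers, 3 of them used by the rule, summed to 26398 and 28946 CPM in the macrophage class and to 571 and 479 CPM in the interstitial class. The 7 endothelial markers, 3 of them used by the rule, summed to 3844 and 3839 CPM in the endothelial class and to 47.5 and 90.4 CPM in the interstitial class. The remaining 775 and 564 barcodes met no rule and were left unclassed. In them erythroid markers reached 165453 and 88405 CPM, melanocyte markers 4617 and 4972 CPM and T cell markers 571 and 307 CPM. Among interstitial barcodes 233 (3.08%) and 342 (4.40%) also met the C1q or the endothelial rule, and results that rest on them are given with and without them.

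Both sets of genes were far more abundant in macrophages and endothelial cells than in the interstitial cells that make up most of the valve. The 21 mitotic members summed to 189 CPM (186 to 192) and 207 CPM (204 to 210) in the interstitial class of the wild type and the Fbn1 C1039G/+ library. They summed to 1014 (993 to 1036) and 1116 CPM (1092 to 1140) in macrophages, and to 717 (691 to 745) and 912 CPM (885 to 939) in endothelial barcodes. The 15 S-phase members were less unequal, at 248 and 254 CPM in interstitial, 727 and 847 CPM in macrophage and 523 and 623 CPM in endothelial barcodes. A member was counted as higher or lower where the ratio was at least 1.5-fold and its interval excluded 1. By that rule 35 of 36 members were higher in macrophages than in interstitial barcodes in both libraries, where the same holds for 21.4% and 20.5% of all measured genes. In endothelial barcodes 34 and 36 of 36 were higher, against 23.7% and 23.8% of all genes. The median log2 ratio of the 36 genes was 2.04 and 2.05 for macrophages, beside -0.22 and -0.23 for all genes, and 1.55 and 1.83 for endothelial barcodes, beside 0.13 and 0.11.

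**Figure D1:**
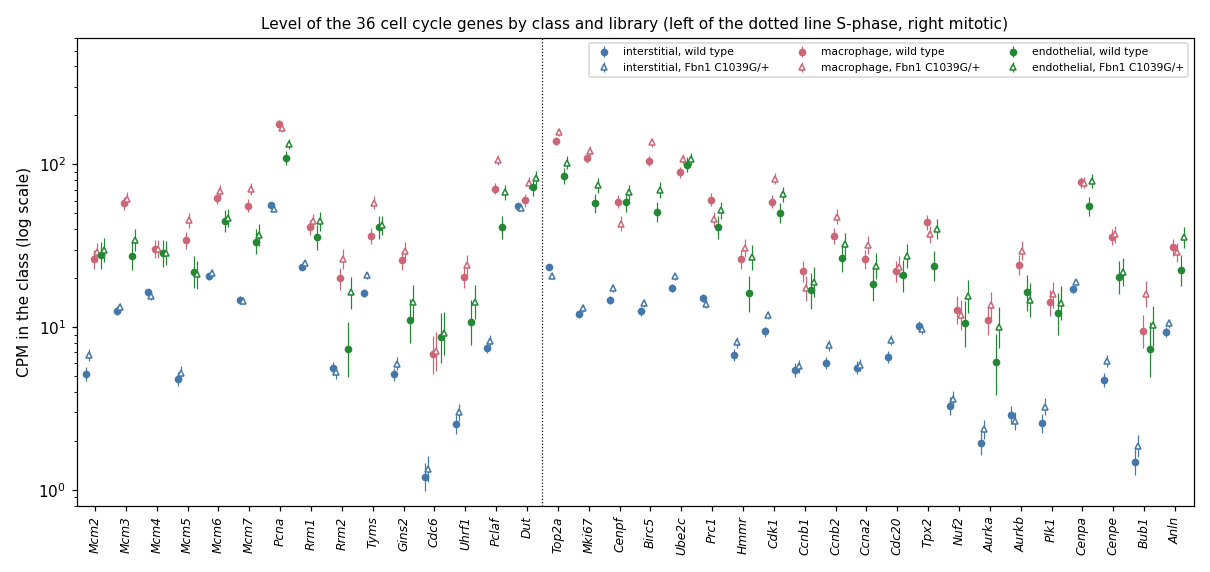
The level of each of the 36 genes in CPM on a log axis, by class (colour) and library (filled circles wild type, open triangles Fbn1 C1039G/+), with 95% Poisson counting intervals as lines. Interstitial points lie lowest for each gene, and for Dut the macrophage points lie close to them, at 60.3 and 77.3 CPM against 55.4 and 54.1 CPM.

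Mki67 (ENSMUSG00000031004; mm10 chromosome 7, 135689784 to 135716361, minus strand) showed the pattern of the mitotic set. Its level was 12.1 and 13.2 CPM in interstitial barcodes, 109 and 121 CPM in macrophages and 57.6 and 74.3 CPM in endothelial barcodes. The macrophage level was 9.02-fold and 9.20-fold the interstitial level in the 2 libraries, and the endothelial level 4.78-fold and 5.65-fold. Top2a stood at 23.3 and 20.7 CPM in interstitial, 139 and 159 CPM in macrophage and 84.8 and 102.6 CPM in endothelial barcodes. Birc5 stood at 12.5 and 14.0, 105 and 137, and 51.3 and 69.8 CPM in the same order, and Ube2c at 17.4 and 20.5, 89.2 and 108, and 99.9 and 108 CPM. In these 4 genes no interstitial interval met an interval of another class. Cenpa, which replaces a histone at the centromere, stood at 17.1 and 18.9, 77.7 and 77.4, and 55.2 and 79.0 CPM. Cenpf stood at 14.8 and 17.4, 59.0 and 43.3, and 58.7 and 67.3 CPM, and was 3.996-fold and 2.49-fold higher in macrophages than in interstitial barcodes. Over the 21 mitotic members the macrophage ratio ran from 3.32 (Anln) to 9.02 (Mki67) in the wild type and from 2.49 (Cenpf) to 11.1 (Aurkb) in the Fbn1 C1039G/+ library.

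The S-phase members varied more among themselves. Pclaf (ENSMUSG00000040204; chromosome 9, 65890237 to 65903266, plus strand) stood at 7.48 and 8.28 CPM in interstitial, 71.0 and 106 CPM in macrophage and 41.2 and 67.3 CPM in endothelial barcodes, and was 9.49-fold and 12.8-fold higher in macrophages than in interstitial barcodes. Dut (ENSMUSG00000027203; chromosome 2, 125247190 to 125258608, plus strand), whose enzyme keeps uracil out of DNA, stood at 55.4 and 54.1, 60.3 and 77.3, and 72.7 and 82.5 CPM. Its macrophage ratio was 1.09 and 1.43, and it was the member that did not pass in that contrast in either library. Pcna (ENSMUSG00000027342; chromosome 2, 132249162 to 132253314, minus strand) stood at 56.6 and 53.2, 178 and 168, and 109 and 134 CPM, and Mcm6 at 20.5 and 21.6, 62.5 and 68.9, and 45.2 and 47.0 CPM. For both genes macrophages were about alike in the 2 libraries and above the other classes. Rrm1, the large subunit of ribonucleotide reductase, stood at 23.4 and 24.8, 41.1 and 44.8, and 35.7 and 44.7 CPM. Tyms stood at 16.2 and 20.8, 36.6 and 58.2, and 41.2 and 42.3 CPM, and Mcm7 at 14.7 and 14.6, 55.7 and 70.9, and 33.6 and 36.9 CPM. Of the S-phase members, Rrm2 and Dut did not pass in the endothelial contrast of the wild type library, with ratios of 1.33 and 1.31.

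The sets also differed in how their UMIs were spread over cells. In interstitial barcodes 81.8% and 79.5% had no UMI of any of the 21 mitotic members, while 16.5% and 17.9% had none of the 15 S-phase members. The 1% of interstitial barcodes with most UMIs of a set held 88.4% and 84.7% of the mitotic UMIs and 20.6% and 19.8% of the S-phase UMIs. Barcodes with at least 10 UMIs over the mitotic members are called mitotic-positive here. This is a range of a summed count and not a cell type. For each member its UMIs were then counted in barcodes that reached 10 UMIs, where a mitotic member's own UMIs were left out of the sum. In the interstitial class that share ran from 68.2% (Cenpa) to 98.4% (Hmmr) of the UMIs of a mitotic member in the wild type and from 68.7% (Anln) to 99.0% (Hmmr) in the Fbn1 C1039G/+ library.

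**Figure D2:**
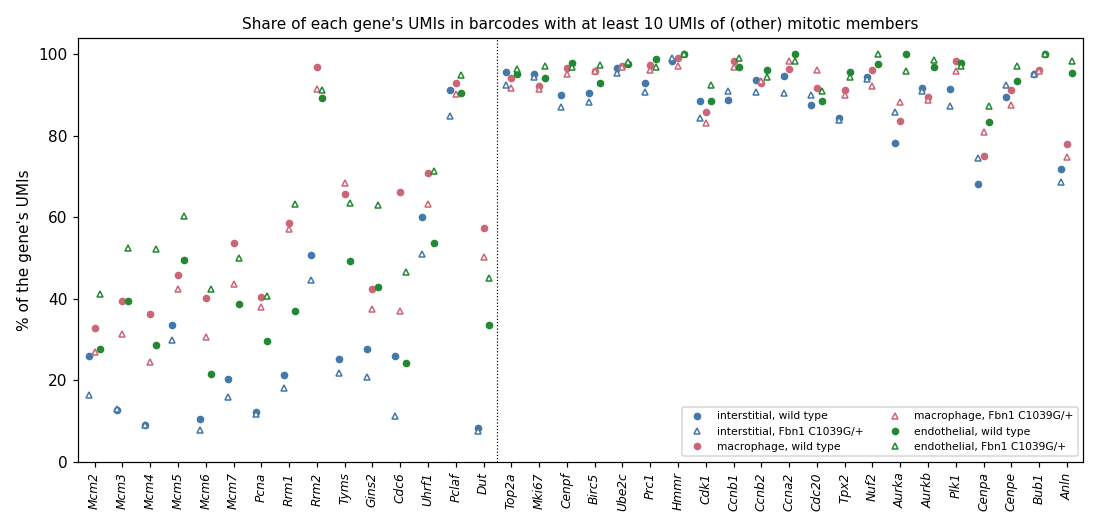
The share of the UMIs of each gene, in percent, that lay in barcodes with at least 10 UMIs of mitotic members (the gene itself left out), by class (colour) and library (filled circles wild type, open triangles Fbn1 C1039G/+). Mitotic members (right of the dotted line) lie above 68%, while S-phase members spread from 7.59% (Dut, interstitial, Fbn1 C1039G/+) to 97.0% (Rrm2, macrophage, wild type).

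S-phase members formed a range between these ends. Pclaf had 91.1% and 84.8% of its interstitial UMIs in mitotic-positive barcodes, Uhrf1 60.0% and 51.0%, and Rrm2 50.6% and 44.5%. Dut had 8.30% and 7.59%, Mcm4 9.02% and 9.07%, Mcm6 10.4% and 7.86%, and Pcna 12.2% and 11.8%. Pclaf thus lay with the mitotic genes and Dut, Mcm4, Mcm6 and Pcna at the other end. In interstitial barcodes with under 10 UMIs of both sets, Dut still stood at 49.3 and 48.4 CPM and Pcna at 48.3 and 43.7 CPM. In the same barcodes Pclaf stood at 0.508 and 0.855 CPM and Mki67 at 0.419 and 0.545 CPM. A gene's own UMIs were not left out when barcodes low in both sets were chosen, which by itself lowers its level in them. In macrophages Dut behaved otherwise, with 57.3% and 50.3% of its UMIs in mitotic-positive barcodes and 16.9 and 22.5 CPM in barcodes low in both sets. Rrm2 had 97.0% and 91.4% of its macrophage UMIs in mitotic-positive barcodes. Cenpa and Anln were the mitotic members with the widest spread in macrophages too, at 75.0% and 80.8% and at 78.0% and 74.8%.

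The level differences between classes went with different shares of mitotic-positive barcodes. These were 90 of 7557 interstitial barcodes (1.19%, 0.959 to 1.46) in the wild type and 121 of 7768 (1.56%, 1.29 to 1.86) in the Fbn1 C1039G/+ library. In macrophages they were 88 of 813 (10.8%, 8.77 to 13.2) and 109 of 890 (12.2%, 10.2 to 14.6). In endothelial barcodes they were 15 of 250 (6.00%, 3.40 to 9.70) and 38 of 318 (11.9%, 8.60 to 16.0). The macrophage share was 9.09 times (6.84 to 12.1) and 7.86 times (6.13 to 10.1) the interstitial share, and the endothelial share 5.04 times (2.96 to 8.58) and 7.67 times (5.42 to 10.9). Interstitial barcodes still held 36.4% and 40.2% of all 247 and 301 mitotic-positive barcodes, beside 35.63% and 36.2% in macrophages. Without barcodes that also met the rule of a second class, 75 and 82 interstitial mitotic-positive barcodes remained. For macrophages 86 and 107 remained. Mitotic-positive barcodes were deeper than the rest of their class, with a median of 20876 and 18715 against 10047 and 10055 UMIs in the interstitial class and 14934 and 12267 against 8005 and 7046 in macrophages. With every barcode thinned to 3000 UMIs and at least 3 mitotic UMIs asked for, the shares were 1.10% and 1.58%, 10.6% and 13.5%, and 6.10% and 9.35% in the 3 classes. Thinning left out 40 and 292 interstitial, 29 and 58 macrophage and 4 and 8 endothelial barcodes of lower depth. The number of barcodes near the limit, with 5 to 19 mitotic UMIs, was 34 and 57, 30 and 54, and 8 and 16.

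**Figure D3:**
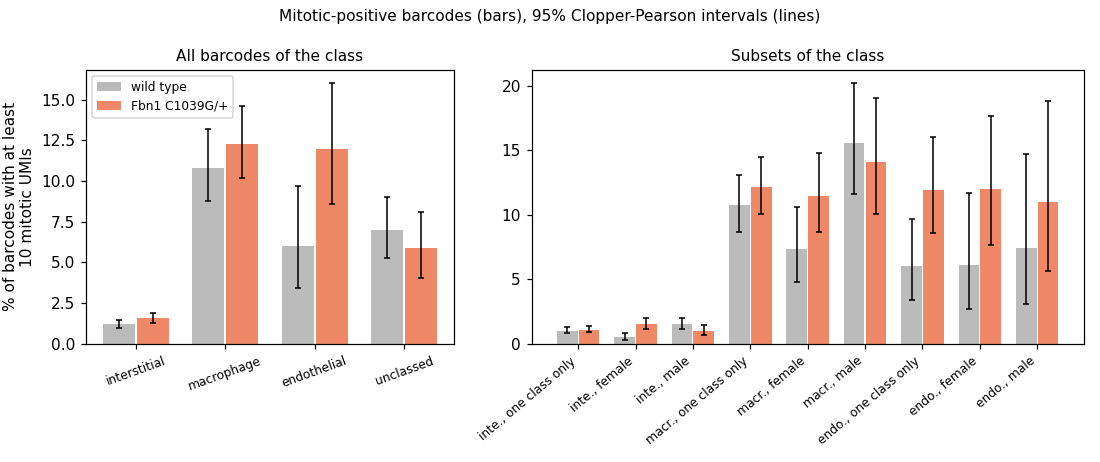
Share of mitotic-positive barcodes in percent, as bars with 95% Clopper-Pearson intervals, for wild type (grey) and Fbn1 C1039G/+ (orange). All barcodes of each class are on the left, and barcodes meeting the rule of 1 class only and barcodes of either sex are on the right, where the female interstitial bars stand at 0.543% and 1.53% and the male bars at 1.502% and 0.993%.

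Mitotic-positive interstitial barcodes carried markers of other cell types more often than the rest. In the wild type library 15 of 90 (16.7%) also met the C1q rule, against 2.92% of other interstitial barcodes that met a second rule. In the Fbn1 C1039G/+ library 39 of 121 (32.2%) met a second rule, 31 that of C1q and 12 the endothelial rule, against 3.96% of the others. The 8 macrophage markers, 3 of them used by the rule, summed to 1843 and 2486 CPM in mitotic-positive and 538 and 419 CPM in other interstitial barcodes, and T cell markers to 84.4 and 22.4 against 5.06 and 1.86 CPM. The median share of the 4 collagen and decorin genes was 1.90% in both libraries in mitotic-positive and 2.83% and 3.18% in other interstitial barcodes. The part that barcodes with more than 1 cell have in the result was not tested. Without barcodes of a second class the interstitial shares were 1.02% (0.806 to 1.28) and 1.10% (0.879 to 1.37). When barcodes with at least 3 UMIs of any list for another cell type (mural cells aside) were also left out, they were 0.854% (0.648 to 1.11) and 1.06% (0.827 to 1.34).

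Mitotic and S-phase UMIs occurred together in many barcodes. The limit of 10 S-phase UMIs was not adjusted for depth, and no share at equal depth is given for it. Dut and Pcna were also present in interstitial barcodes low in both sets, so a deep barcode can reach the limit through them. Whether S-phase-positive barcodes are cells in S phase was not tested. Of barcodes with at least 10 UMIs of either set, 62 interstitial barcodes of the wild type library had both, 28 mitotic only and 88 S phase only, and 68, 53 and 133 in the Fbn1 C1039G/+ library. In macrophages the numbers were 62, 26 and 69, and 78, 31 and 91, and in endothelial barcodes 11, 4 and 31, and 25, 13 and 32. The share of mitotic-positive barcodes that were also S-phase-positive was 70.5% (59.8 to 79.7) and 71.6% (62.1 to 79.8) in macrophages. In interstitial barcodes it was 68.9% (58.3 to 78.2) and 56.2% (46.9 to 65.2), with intervals that overlap. The S-phase-positive shares were 1.98% and 2.59% in interstitial, 16.1% and 18.99% in macrophage and 16.8% and 17.9% in endothelial barcodes. The endothelial class of the wild type library thus had 42 S-phase-positive and 15 mitotic-positive barcodes. The part of depth in the 42 was not tested.

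**Figure D4:**
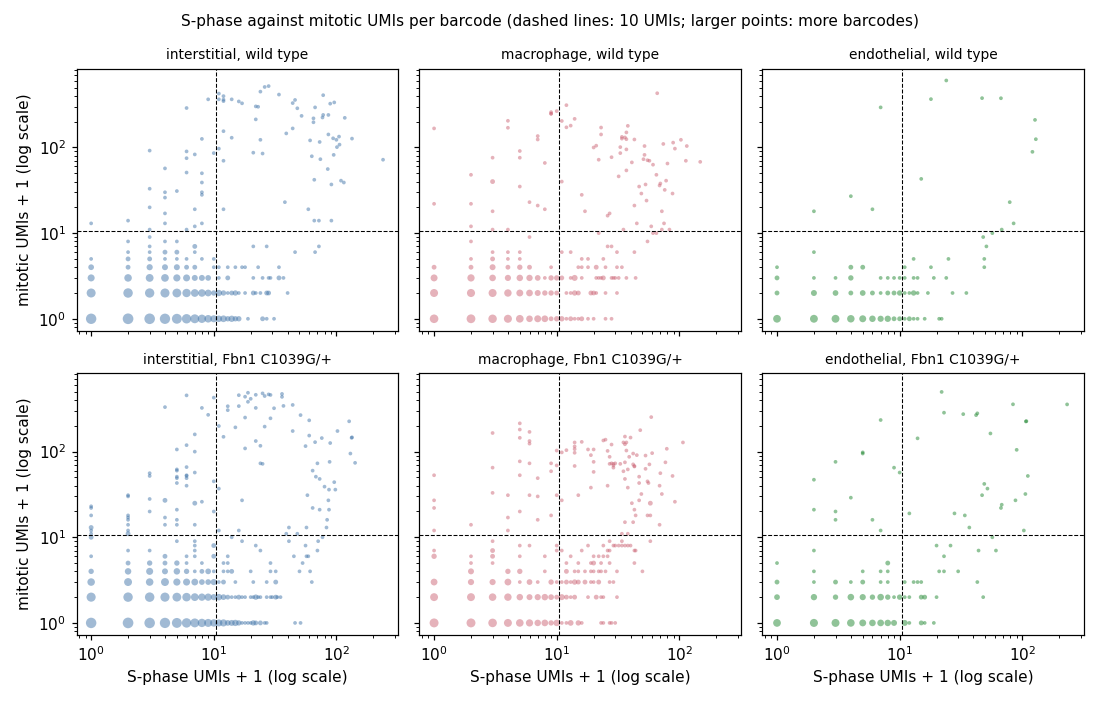
S-phase UMIs (horizontal) against mitotic UMIs (vertical) per barcode, each plus 1 on a log axis, by class and library, where larger points stand for more barcodes and dashed lines mark 10 UMIs. Most barcodes lie at the lower left, and in each panel an arm runs right at low mitotic counts and turns up, up to 520 and 486 mitotic UMIs in an interstitial barcode.

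S-phase members were higher in mitotic-positive barcodes than in the rest of their class, a contrast the mitotic members were used to choose and the S-phase members were not. All 15 were higher in the interstitial and endothelial classes of both libraries and in wild type macrophages, and 14 in Fbn1 C1039G/+ macrophages, where Mcm4 had a ratio of 1.38 (1.01 to 1.88). None was lower. Of all genes 16.2% and 14.8% were higher and 10.3% and 8.8% lower in interstitial barcodes, 13.8% and 11.4% and 6.5% and 9.81% in macrophages, and 8.81% and 7.3% and 11.3% and 8.56% in endothelial barcodes. In the interstitial class Pclaf stood at 0.682 and 1.30 CPM in the rest and at 275 and 243 CPM in mitotic-positive barcodes. Dut stood at 52.1 and 51.5 CPM in the rest and at 186 and 142 CPM in mitotic-positive barcodes, ratios of 3.56 (3.20 to 3.96) and 2.77 (2.48 to 3.08). Dut and Pclaf had the lowest and the highest of the interstitial ratios. Of 7 inhibitor genes, 4 were higher and 1 lower in mitotic-positive interstitial barcodes of each library. In macrophages 3 were higher in each library and 0 and 1 lower, and in endothelial barcodes 3 and 2 were higher and 2 lower in each. Among them Cdkn2a was higher in mitotic-positive interstitial barcodes, at 6.26 against 41.0 CPM and 13.9 against 46.5 CPM, and in macrophages, at 3.85 against 39.2 CPM and 4.09 against 32.9 CPM. Cdkn2b was lower in mitotic-positive interstitial barcodes, at 24.6 against 13.7 CPM and 40.03 against 23.2 CPM.

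The ratio of S-phase to mitotic UMIs was above 1 in interstitial barcodes, at 1.31 (1.29 to 1.34) and 1.23 (1.20 to 1.25). It was below 1 in macrophages, at 0.716 (0.693 to 0.741) and 0.759 (0.735 to 0.785), and in endothelial barcodes, at 0.729 (0.687 to 0.772) and 0.684 (0.653 to 0.716). The 1% of interstitial barcodes with most UMIs of a set held 20.6% and 19.8% of S-phase and 88.4% and 84.7% of mitotic UMIs. Most interstitial S-phase UMIs thus lay outside those barcodes, and the ratio does not give the number of cells in each phase. The interstitial value moved with how barcodes were weighted, and with barcodes thinned to equal depth it was 2.14 and 1.95. The wild type endothelial ratio was then 0.984 (0.840 to 1.15), whose interval includes 1. In female wild type interstitial barcodes it was 2.56.

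Within mitotic-positive barcodes, macrophages and interstitial cells were compared in each library. The barcodes were chosen by a sum over the same 21 mitotic members, with 1 limit for classes of unequal depth. Median depth was 20876 and 18715 UMIs in interstitial and 14934 and 12267 UMIs in macrophage mitotic-positive barcodes. The limit therefore shapes the mitotic levels compared here, and its part in them was not tested. Of the 21 mitotic members 9 and 8 were lower in macrophages, and 8 of them were shared by both libraries, namely Cenpf, Prc1, Hmmr, Ccnb1, Cdc20, Tpx2, Nuf2 and Anln. Of all measured genes 25.6% and 30.7% were lower in this contrast, so the count in the Fbn1 C1039G/+ library lay near that of all genes. Cenpf stood at 535 and 533 CPM in interstitial and 318 and 218 CPM in macrophage mitotic-positive barcodes. Cdc20, which activates the cyclin-degrading ligase, stood at 232 and 262 against 113 and 120 CPM. Anln stood at 271 and 253 against 134 and 115 CPM. Of the 15 S-phase members 3 and 9 were higher in macrophages, 3 of them in both libraries (Mcm3, Mcm6 and Cdc6), beside 15.1% of all genes in each library, and the wild type count lay near that share. Mcm3 stood at 65.3 and 58.9 CPM in interstitial and 126 and 101 CPM in macrophage mitotic-positive barcodes. Pclaf, at 275 and 243 against 367 and 505 CPM, passed in the Fbn1 C1039G/+ library only, and the difference between libraries was not tested. No mitotic member was higher in macrophages of the wild type library. In the Fbn1 C1039G/+ library Birc5 (434 in interstitial and 699 CPM in macrophage barcodes) and Aurkb (84.2 and 140 CPM) were higher, and without barcodes of a second class neither passed. Without those barcodes 11 and 10 mitotic members were lower, beside 28.8% and 31% of all genes. Of these, 9 were lower in both libraries, the same 8 and Cenpa. By the same count 4 and 9 S-phase members were higher, beside 16.3% and 17.1% of all genes. Of these, 4 were higher in both libraries, Pclaf with the other 3. Between macrophage and interstitial mitotic-positive barcodes, 4 of 22 and 10 of 21 measured replication genes outside the 36 were higher and none lower, and of 37 other mitotic genes 1 and 6 were higher and 10 and 4 lower. Among the replication genes Gmnn, the inhibitor of origin licensing, stood at 74.1 and 71.8 against 157 and 204 CPM. Ckap2, a spindle protein gene, stood at 263 and 227 CPM in interstitial and 85.1 and 55.2 CPM in macrophage mitotic-positive barcodes. Between endothelial and interstitial mitotic-positive barcodes, 2 and 5 S-phase members were higher, Mcm3 in both libraries, where 13% and 15.8% of all genes were higher. Of the mitotic members 2 and 8 were lower, Hmmr in both libraries, beside 13.6% and 14.6% of all genes. Without barcodes of a second class 6 and 15 mitotic members were lower, beside 14.1% and 14.6%, and Prc1, Hmmr, Ccnb1, Cdc20, Tpx2 and Anln were lower in both libraries.

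By genotype, no member passed the 1.5-fold rule in the interstitial class, where 2.97% of 16284 genes were higher and 5.29% lower in the Fbn1 C1039G/+ library. The median log2 ratio over the 36 genes was 0.12, beside 0.01 over all genes. Summed mitotic members had a ratio of 1.10 (1.07 to 1.12) and summed S-phase members 1.02 (1.00 to 1.04). Without barcodes of a second class these ratios were 0.952 (0.930 to 0.975) and 0.997 (0.977 to 1.02). When barcodes with markers of any other type were left out as well, the mitotic ratio was 1.13 (1.10 to 1.16), so its direction was not stable over these settings. The ratio of mitotic-positive shares was 1.31 (0.997 to 1.72). It was 1.08 (0.790 to 1.47) without barcodes of a second class, 1.43 (1.08 to 1.89) after thinning and 1.35 (1.06 to 1.72) with a limit of 5 mitotic UMIs, and the last 2 intervals exclude 1. Without barcodes with markers of any other type it was 1.24 (0.876 to 1.76), whose interval includes 1. With a limit of 20 mitotic UMIs, 75 of 7557 and 94 of 7768 barcodes remained. The highest interstitial ratios among members with an interval above 1 were those of Mcm2 (5.16 and 6.73 CPM, ratio 1.30), Cenpe (4.75 and 6.18 CPM, 1.30), Tyms (16.2 and 20.8 CPM, 1.28) and Ccnb2 (6.04 and 7.74 CPM, 1.28). Top2a had the lowest, 0.889 (0.833 to 0.948), from 23.3 and 20.7 CPM.

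Macrophages of the Fbn1 C1039G/+ library had 2 members higher and none lower, against 3.01% higher and 5.96% lower of 12155 genes. Tyms, the thymidylate synthase gene (ENSMUSG00000025747; chromosome 5, 30058202 to 30073617, minus strand), had 301 and 439 UMIs, or 36.6 and 58.2 CPM, and its ratio was 1.59 (1.37 to 1.85). Bub1, a kinase of the spindle checkpoint, had 78 and 121 UMIs, or 9.48 and 16.0 CPM, and its ratio was 1.69 (1.26 to 2.28). Pclaf, at 71.0 and 106 CPM with an interval of the ratio of 1.34 to 1.67, lay just under the 1.5-fold limit. Cenpf (59.0 and 43.3 CPM, 0.735), Prc1 (60.8 and 46.1 CPM, 0.759) and Ccnb1 (22.1 and 17.4 CPM, 0.785) had intervals below 1 but did not reach 1.5-fold. The sum of S-phase members had a ratio of 1.17 (1.13 to 1.21) and that of mitotic members 1.10 (1.07 to 1.13). The ratio of mitotic-positive shares was 1.13 (0.869 to 1.47), whose interval includes 1, and with a limit of 5 mitotic UMIs it was 1.31 (1.04 to 1.66), whose interval does not. With a limit of 20 mitotic UMIs, 73 of 813 and 94 of 890 macrophage barcodes remained.

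**Figure D5:**
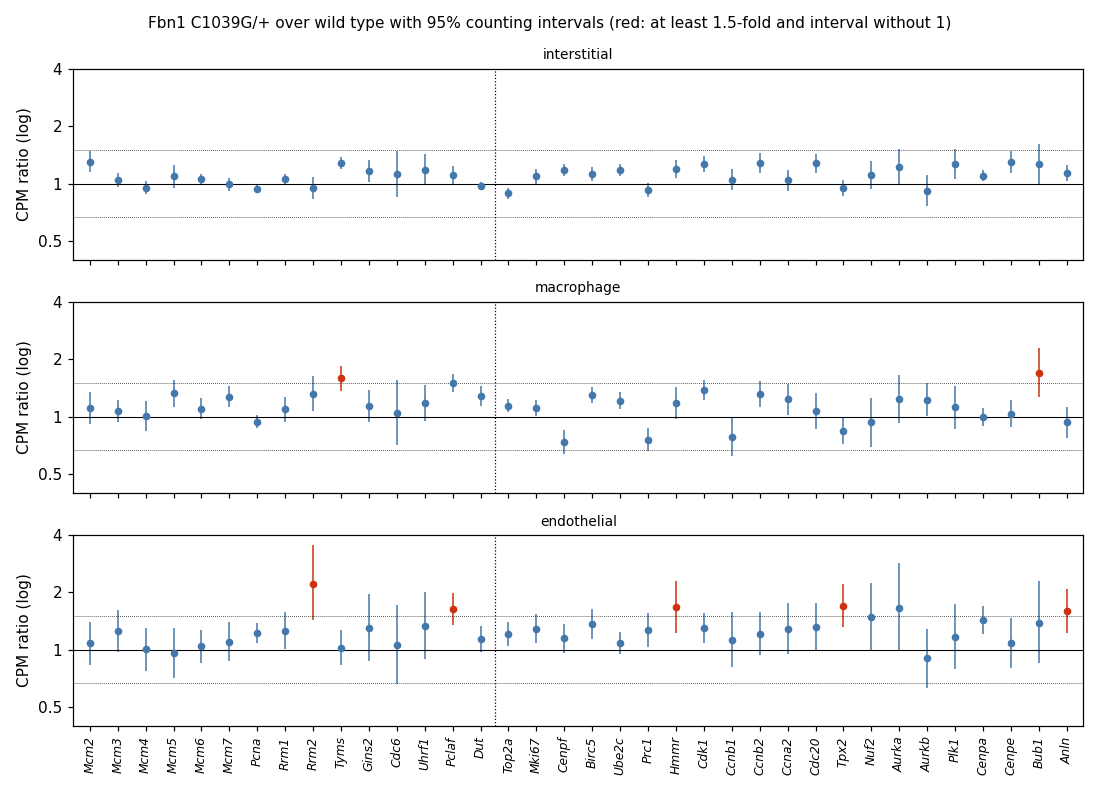
Ratio of CPM, Fbn1 C1039G/+ over wild type, for each gene on a log axis in the 3 classes, with 95% exact binomial counting intervals. Points in red (0 interstitial, 2 macrophage and 5 endothelial genes) are at least 1.5-fold with an interval that excludes 1, and horizontal dotted lines mark that fold.

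In endothelial barcodes 5 members were higher and none lower, against 4.33% higher and 4.73% lower of 11806 genes, and the median log2 ratio over the 36 was 0.32 beside 0.02. Rrm2, the small subunit of ribonucleotide reductase, had 28 and 80 UMIs, or 7.40 and 16.4 CPM, and its ratio was 2.22 (1.43 to 3.55). Pclaf had 156 and 328 UMIs, or 41.2 and 67.3 CPM, and its ratio was 1.63 (1.35 to 1.99). Among the mitotic members Tpx2 stood at 23.8 and 40.2 CPM (1.69), Hmmr at 16.1 and 26.9 CPM (1.67) and Anln at 22.5 and 35.7 CPM (1.59). These UMIs came from few cells, since Hmmr was detected in 10 of 250 and 22 of 318 barcodes and Rrm2 in 9 and 26. The share of mitotic-positive endothelial barcodes, 15 of 250 and 38 of 318, had a ratio of 1.99 (1.12 to 3.54). With barcodes thinned to equal depth the shares were 6.10% (3.45 to 9.86) and 9.35% (6.35 to 13.2), and their ratio of 1.53 (0.842 to 2.80) had an interval that includes 1. At a fold of 2 only Rrm2 remained of the 5.

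The pools held mice of both sexes, and the genotype ratios differed by sex. Barcodes with Xist and no UMI of Y-linked genes were taken as female and those with Y-linked UMIs and no Xist as male. The Fbn1 C1039G/+ pool of 3 mice had both, so 1 of its sexes came from a single mouse, and sex and mouse cannot be told apart. Of female interstitial barcodes 19 of 3496 (0.543%) and 57 of 3731 (1.53%) were mitotic-positive, a ratio of 2.81 (1.68 to 4.71). Of male barcodes 47 of 3130 (1.502%) and 29 of 2920 (0.993%) were, a ratio of 0.661 (0.418 to 1.05). Female wild type barcodes were low and the other 3 groups lay between 0.993% and 1.53%. Barcodes with both Xist and Y-linked UMIs, or with neither, were in none of these groups, and mitotic-positive ones were not left out evenly. The part of this loss in the ratios by sex was not tested. The whole interstitial class had 90 of 7557 (1.19%) and 121 of 7768 (1.56%) mitotic-positive barcodes. The share of 1.56% lies above both the female and the male share of the Fbn1 C1039G/+ library. In female interstitial barcodes 27 of the 36 genes were higher in the Fbn1 C1039G/+ library, all 21 mitotic members among them, against 3.82% of all genes, and none was lower (4.55%). In male barcodes none was higher or lower, against 2.37% and 5.13% of all genes. In females Mki67 stood at 5.76 and 13.5 CPM and Ube2c at 7.18 and 21.1 CPM. In macrophages 12 members were higher and none lower in females (4.69% and 5.09% of all genes) and none in males (3.69%), where Cenpf, Prc1 and Nuf2 were lower (5.72% of all genes). Female macrophages held 25 of 342 (7.31%) and 51 of 444 (11.5%) mitotic-positive barcodes and male macrophages 46 of 295 (15.6%) and 35 of 248 (14.1%). In endothelial barcodes 10 members were higher and 1 lower in females (4.28% and 4.49% of all genes), and 2 higher and 6 lower in males (6.22% and 4.92%). Their mitotic-positive shares had ratios of 1.97 (0.905 to 4.28) in females and 1.48 (0.598 to 3.65) in males.

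The unclassed barcodes, a mixture, ran the other way. They held 54 of 775 (6.97%) and 33 of 564 (5.85%) mitotic-positive barcodes, and 16 of the 36 members were lower in the Fbn1 C1039G/+ library and none higher, against 4.99% and 8.31% of all genes. Those lower were Mcm3, Mcm5, Pcna, Rrm2 and Pclaf of the S-phase set and Top2a, Mki67, Cenpf, Birc5, Ube2c, Prc1, Cdk1, Ccnb1, Ccna2, Nuf2 and Aurkb of the mitotic set. Top2a stood at 153 and 56.8 CPM and Prc1 at 56.0 and 19.5 CPM in them. Of the 54 wild type mitotic-positive barcodes 23 had at least 3 UMIs of T cell markers and 23 of NK cell markers, and of the 33 in the Fbn1 C1039G/+ library 4 and 3 did. The part of this make-up in the lower levels was not tested. Ube2c stood apart in the unclassed barcodes. In the 206 and 105 barcodes with at least 100 erythroid UMIs it was detected in 19.9% and 19.05% and stood at 77.9 and 83.0 CPM, while the other 20 mitotic members together had 8.44 and 19.7 CPM and no barcode was mitotic-positive. In interstitial, macrophage and endothelial barcodes low in both sets Ube2c lay between 0.596 and 4.43 CPM. Those barcodes were chosen by sums that include Ube2c itself, and the erythroid ones were not.

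Other genes of the cycle were read from lists of 18 G1 cyclin and E2F genes, 7 inhibitors, 22 other replication genes and 37 other mitotic genes. Against the interstitial class, 20 and 21 of 22 replication genes and 35 of 37 mitotic genes in each library were higher in macrophages, as were most of the 36. Of all genes 21.4% and 20.5% were higher and 34.2% and 34.6% lower. The mitotic genes Cdc25b and Pttg1 were lower in the wild type library. Of the 18 G1 cyclin and E2F genes 11 were higher in each library, and 2 and 4 were lower. By genotype in interstitial barcodes none of the 22 or 37 passed. Ccnd1, the cyclin of early G1, was higher in the Fbn1 C1039G/+ library in all 3 classes, at 91.4 and 154 CPM (ratio 1.68) in interstitial, 259 and 415 CPM (1.61) in macrophage and 219 and 419 CPM (1.91) in endothelial barcodes. In interstitial barcodes 3 of 7 inhibitors were higher and 1 lower, beside 2.97% and 5.29% of all genes. Cdkn1a, a target of p53, stood at 205 and 338 CPM (1.65), Cdkn2a at 7.12 and 14.9 CPM (2.09) and Cdkn2b at 24.4 and 39.5 CPM (1.62), while Cdkn1c stood at 17.2 and 11.02 CPM (0.640). Without barcodes of a second class these 4 ratios were 1.68, 2.05, 1.61 and 0.608. By sex Ccnd1 had a ratio of 2.07 in female and 1.43 in male interstitial barcodes and Cdkn1a 2.04 and 1.28, so that neither passed in males. In macrophages 5 of 22 replication genes were higher and none lower by genotype, beside 3.01% and 5.96% of all genes. Among the 5 were Gins1, a partner of Gins2, at 6.32 and 14.4 CPM (2.29), Cdc45 at 7.66 and 13.0 CPM (1.70), and Prim1, a primase subunit, at 16.9 and 27.6 CPM (1.63). The kinetochore gene Ndc80 stood at 16.0 and 29.3 CPM (1.83). Cdkn1b was lower there, at 83.9 and 55.1 CPM (0.657). In endothelial barcodes 10 of 36 measured mitotic genes were higher and none lower, beside 4.33% and 4.73% of all genes. Among the 10 were Ndc80 at 4.49 and 10.3 CPM (2.28), Cdca2 at 3.96 and 7.80 CPM (1.97) and the condensin gene Ncapd2 at 9.51 and 18.3 CPM (1.92). Of 21 measured replication genes Pole, Tk1 and Chaf1b were higher there. Ccne1, a cyclin of late G1, rested on 4 and 25 UMIs, with a ratio of 4.86 (1.68 to 19.2), and Ccnd2 stood at 345 and 214 CPM (0.621).

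Several members share sequence with a gene on the opposite strand, and the sources used here do not state how strand was used in counting. Mcm7 overlaps Cops6 and Ap4m1, Cdc20 overlaps Elovl1, Pclaf overlaps Trip4, Ccna2 overlaps Exosc9, Gins2 overlaps Gse1, Prc1 overlaps Rccd1 and Ube2c overlaps Tnnc2. Reads of such pairs could not be told apart if strand was not used. Their partners had between 273 (Tnnc2) and 19212 UMIs (Cops6) in all classes. On the same strand, Anln overlaps Gm48646, which had 7 UMIs in all classes.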

How the data were processed

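The authors deposited 1 table of UMI counts per gene and barcode for each library, for barcodes already taken as cells, made with the Chromium 3′ v3.1 kit per the labels. Cell Ranger 3.1.0 is named per the submitters' processing notes and 5.0.1 with mm10 per the file headers, and which of these made the counts was not settled. How strand was used in counting is not given in the sources used here. From these counts, class sums, CPM, shares and ratios were computed with Python 3.11.15, numpy 2.4.6, scipy 1.17.1 and pandas 2.3.3, and figures with matplotlib 3.10.9. Barcodes with under 1000 UMIs or over 20% mitochondrial UMIs were left out. No doublet caller was run, and barcodes that met the rules of 2 classes were kept and left out in an alternative.

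Intervals at 95% were Poisson for CPM, exact binomial for ratios of counts, Clopper-Pearson for shares and log-normal for ratios of shares. Log2 ratios used a pseudocount of 1 CPM. A gene was measured with at least 20 UMIs over both sides of a contrast. The scripts were tested on simulated data. The members, lists and rules were chosen with earlier results of these data known. The rule for named genes took the 6 members of each set with the most UMIs, every member past the 1.5-fold rule by genotype, and up to 4 genes of each other list with the largest ratios past that rule. Of the genes taken from the other lists, 1 is not reported here. Other genes named with values were chosen after their values were seen. Promoters printed are the 3 members of each set with the most UMIs whose window touches no annotated exon, a condition added after the sequences were seen. Alternatives were other limits for UMIs, mitochondrial share, collagen share, mitotic UMIs, fold and low counts, median-ratio scaling, thinning, either sex and barcodes of 1 class.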

Additional observations from a re-analysis of the deposited data

Results flagged for a closer look

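The share of mitotic-positive barcodes moved in opposite directions by sex between the Fbn1 C1039G/+ and the wild type library. The ratio was 2.81 in female and 0.661 in male interstitial barcodes, 1.57 and 0.905 in macrophages, and 1.58 and 0.599 in unclassed barcodes. The difference between sexes was not tested, because each sex of a library is a pool or a single mouse. The interval of the male ratio includes 1 in each of these classes, and that of the female ratio includes 1 in macrophages and unclassed barcodes.

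The summed members also moved in opposite directions between classes. The S-phase members had genotype ratios of 1.02 in interstitial, 1.17 in macrophage and 1.19 in endothelial barcodes, and 0.681 in unclassed barcodes. The mitotic members had ratios of 1.10, 1.10 and 1.27 in the 3 classes, and 0.561 in unclassed barcodes. These differences between classes were not tested.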

How the results depend on the processing

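No paired analysis was possible because each genotype had 1 library. Of 220 values under alternative settings, 163 stayed within the interval of the reported value or the same count range, 49 moved and 8 were counted as changed in direction. A change of direction was counted only where the reported interval excluded 1, and never for the ratio of S-phase to mitotic UMIs. Other ratios that crossed 1 are counted with those that moved or stayed. For the values given next, the cause was not tested beyond how each setting is built. Thinning gives each barcode equal weight, and the sexes and classes of barcodes hold fewer cells.

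The ratio of S-phase to mitotic UMIs moved as follows. In wild type interstitial barcodes it was 1.63 with a collagen limit of 2%, 2.56 in females, 1.08 in males and 2.14 after thinning, and in Fbn1 C1039G/+ ones 1.36 without barcodes of a second class, 1.86 with the limit of 2%, 1.17 in males and 1.95 after thinning. In macrophages it was 0.860 in females, 0.588 in males and 0.791 after thinning in the wild type, and 0.808, 0.652 and 0.846 in the Fbn1 C1039G/+ library. In endothelial barcodes it was 0.674 in females and 0.984 after thinning in the wild type, and 0.811 in females and 0.472 in males in the Fbn1 C1039G/+ library.

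The genotype ratio of mitotic-positive shares moved to 2.81 in female and 0.661 in male interstitial barcodes and to 1.57 in female macrophages. The ratio of summed S-phase members moved to 1.17 in female, 0.919 in male and 1.08 in thinned interstitial barcodes, to 0.997 without barcodes of a second class and to 1.00 with the limit of 2%. It moved to 1.38, 0.980 and 1.27 in female, male and thinned macrophages, and to 1.34 and 0.763 in female and male endothelial barcodes. The ratio of summed mitotic members moved to 2.41, 0.846 and 1.18 in female, male and thinned interstitial barcodes, to 0.952 without barcodes of a second class and to 0.880 with the limit of 2%. It was 1.13 without interstitial barcodes that carry markers of any other type, a setting chosen after seeing the data. It moved to 1.47, 0.884 and 1.19 in macrophages and to 1.12, 1.13 and 1.68 in endothelial barcodes in the same order.

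The number of members higher in the Fbn1 C1039G/+ library was 27 in female and 3 in thinned interstitial barcodes. In macrophages it was 12 in females, 0 in males, 5 after thinning and 0 at a fold of 2. In endothelial barcodes it was 10 in females, 2 in males, 8 after thinning and 1 at a fold of 2. The number lower was 2 in interstitial barcodes with the limit of 2%, 3 in male macrophages, and 1 in female and 6 in male endothelial barcodes.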
